A study of Mus musculus with 4 samples.

Results

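The comparison set 1 array of DKmix cells, a mouse blood cell culture kept for 300 days, against 1 array of bone marrow progenitors 3 days after transduction with a β-catenin retrovirus. It covered every gene read by a probe set (a group of short probes for 1 transcript) with a single gene symbol: 34945 of 45101 probe sets, 18193 genes. The series held 4 arrays in all, 1 per group, and asked, per its title and design text, which target genes of β-catenin, the effector of Wnt signalling, take part when blood stem cells become immortal. The day 3 cells were mouse bone marrow cells without lineage markers and positive for Sca-1 and c-kit (LSK cells, a fraction rich in stem and progenitor cells) that had received a β-catenin retrovirus. The labels describe the DKmix cells as LSK cells given β-catenin and then cultured for 50 or 300 days. The remaining array was of LSK cells with an enhanced green fluorescent protein (eGFP) retrovirus at day 3. All 4 cultures shared a serum medium to which SCF, IL-3, IL-11 and Flt3 were added. The labels give no mouse strain, age, number of animals or clones, vector promoter or form of β-catenin, so DKmix stands here for 1 culture of unstated clonality. With 1 array on each side, no test was possible, and every difference below is between 2 arrays.

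Mast cells are blood cells of connective tissue and mucosa that grow from bone marrow in IL-3 and SCF, the ligand of the receptor Kit. They store proteases, histamine and serotonin in granules on serglycin, a core protein that carries long sulfated sugar chains, and empty them when IgE bound to its receptor meets antigen. Granules belong to the lysosome family of compartments, so granule content, lysosomal enzymes and secretion genes are often described together. Monocytes and dendritic cells, which also grow from LSK cells, take up antigen and show it on MHC class II molecules. Growth of any such culture draws on ribosome assembly, nucleotide synthesis, sterol synthesis and glucose use, and these pathways were described next to the lineage genes.

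Intensities were linear and had been scaled by the authors to an equal trimmed mean of 150 on each array. Of the 18193 genes, 12666 reached a floor of 48.3 (the pooled median intensity) on at least 1 of the 2 arrays, and only these were measured. Where 1 array lay below the floor the ratio is a bound, written "at least", and a gene enters that way only because its other value is high. At a 2-fold threshold, 1773 genes (14% of those measured) were higher on DKmix day 300 and 1828 (14.4%) were lower. These shares are the background for every list count below. Of them, 420 and 597 were bounds. Past 8-fold there were 149 higher and 102 lower genes, and past 32-fold 14 and 17. On a scale set on the 9 hybridisation control probe sets the median of all genes moved from -0.08 to -0.87 (log2), with 603 genes higher and 5960 lower, so the share of higher among called genes was 9.19% instead of 49.2%. Ratios are therefore relative to equal overall intensity. Gapdh gave 3′ to 5′ ratios, a sign of RNA integrity, of 1.18 and 1.06 on the 2 arrays compared, in the order early and late, against 4.14 on eGFP day 3 and 4.96 on DKmix day 50. Over 2303 genes with exactly 2 probe sets above the floor, the log2 ratios of both probe sets differed with an SD of 0.66 for a single probe set, which leaves out differences between cultures.

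The label of LSK cells was set beside markers of stem and progenitor cells, most of which are not part of its definition. On β-catenin day 3, 4 of the 5 markers in the table lay at or above the floor. Cd34 was at 804, Cd48 at 1105 and Flt3 below the floor at 47.4. Kit, the only 1 of the 5 that defines the LSK gate, was at 82.9 against the floor of 48.3. Ly6a, the gene for Sca-1, was not analysed here. Markers of other blood cells were present on the same array: 6 of 7 markers of monocytes, macrophages and dendritic cells were at or above the floor with a summed intensity of 19117, and 5 of 6 neutrophil markers with a sum of 3222. On DKmix day 300 these sums were 253 and 144, with 1 marker of each list above the floor. Mast cell markers summed to 3468 on the early array and 58851 on the late one, with 5 and 7 of 9 above the floor. Summed markers of stromal and endothelial cells were 141 and 95.7, with Col3a1 and Kdr below the floor on both arrays, Cdh5 at 50.4 on DKmix day 300, and Col1a1 and Col1a2 below it on the probe set used, though another probe set lay above it, at 56.7 for Col1a1 with β-catenin and at 58.4 for Col1a2 on DKmix day 300. In bulk RNA, fewer cells of a type and less RNA per cell cannot be told apart, which holds for every gene below.

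**Figure D1:**
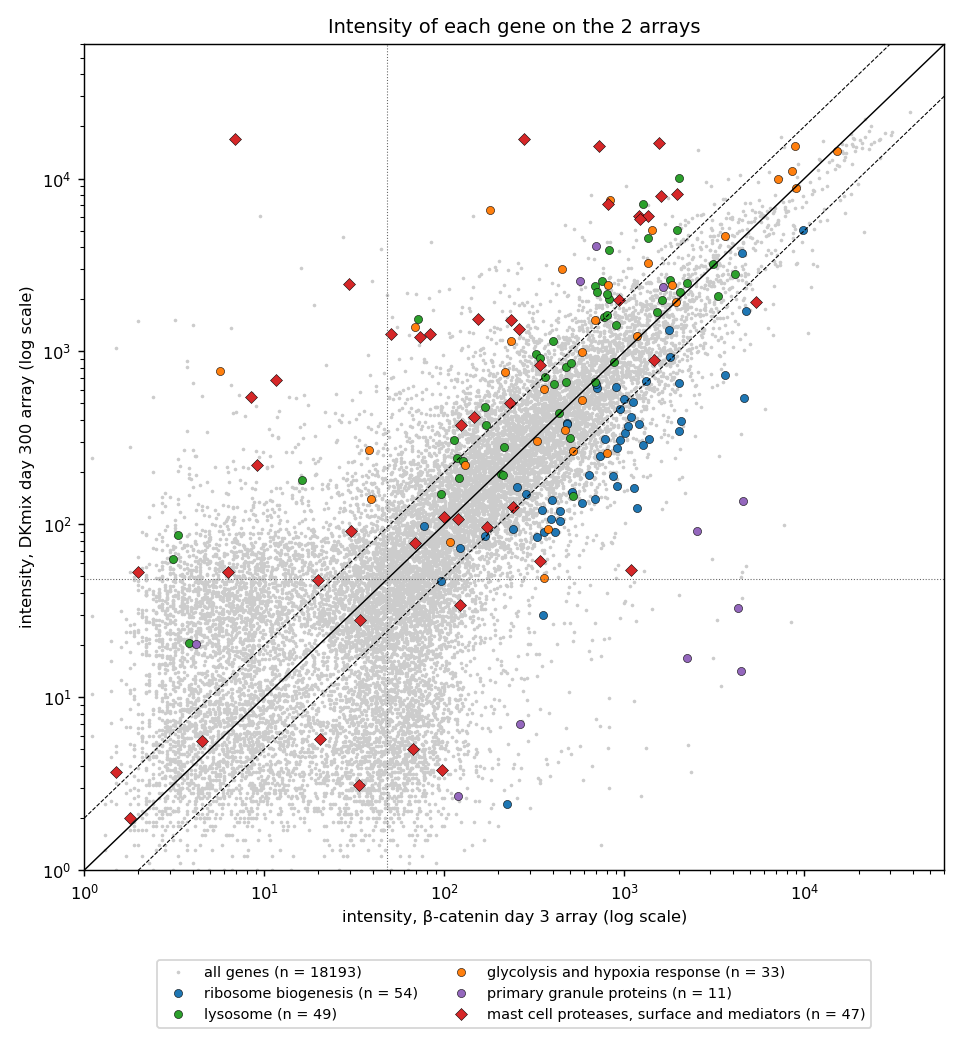
Intensity of each of 18193 genes on the β-catenin day 3 array (x axis) and the DKmix day 300 array (y axis), both on log scales, with 5 gene groups in colour. The solid line is equality, the dashed lines are 2-fold, and the dotted lines are the floor of 48.3; points below the floor are drawn at their own values. Ribosome biogenesis genes lie mostly below the line, lysosome genes mostly on or above it (their median is -0.080 on the hybridisation control scale), and most mast cell genes that leave the cloud are above it.

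The largest differences joined mast cell genes with genes of other roles. Cma1, a mast cell chymase, had intensities of 46986 and 16866 on DKmix days 50 and 300, against 6.9 for β-catenin and 17.3 for eGFP at day 3. It was at least 349-fold higher on DKmix day 300 than on β-catenin day 3, the ratio given for every gene below, with intensities in brackets in the order β-catenin day 3, DKmix day 300. Papss2, which makes the sulfate donor for all sulfotransferases, gave 3459 and 6094 on DKmix days 50 and 300, against 9.5 for β-catenin and 152 for eGFP at day 3 (at least 126-fold higher). For 2 other probe sets of Papss2, above the floor on both arrays, the log2 ratio was 3.19 and 3.38, against a bound of 6.98 for the one used. On the probe sets used, both DKmix arrays were bright for these genes and both day 3 arrays far lower. Avil, an actin-binding protein of the villin family, was at least 95.7-fold higher (27.2 and 4621), and Ccl2, a monocyte-attracting chemokine, at least 80.9-fold (44.7 and 3909). Igfbp5, a secreted binder of insulin-like growth factors, was at least 43.6-fold higher (47.9 and 2106) and Ecm1, a secreted matrix protein, 41.9-fold (144 and 6031).

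Other genes at the top of the ranking stood out on DKmix day 300 alone among the 4 arrays. Gnai1, an inhibitory G protein subunit, gave 137 and 3021 on DKmix days 50 and 300, against 15.9 for β-catenin and 63.9 for eGFP at day 3. Pmp22, a membrane protein best known from myelin, gave 55.7 and 1858 on DKmix days 50 and 300, against 19 for β-catenin and 71.6 for eGFP at day 3. Padi3, a peptidylarginine deiminase, gave 12.2 and 1585 on DKmix days 50 and 300, against 51.4 for β-catenin and 3.5 for eGFP at day 3. In these 3 genes DKmix day 50 lay closer to the day 3 arrays than to DKmix day 300. Gcsam, an adaptor of lymphocyte signalling, was at least 31.3-fold higher at day 300 (3.2 and 1512), with 47 at day 50, and Phlda1 50.8-fold (84.7 and 4304), with 396 at day 50. Tesc, a calcium-binding protein, differed in another way: it was at least 53.1-fold higher than on β-catenin day 3, but eGFP day 3 was at 3438 against 2564 on DKmix day 300. The plot of intensities on the 4 arrays shows Gnai1, Pmp22, Padi3, Gcsam and Phlda1.

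**Figure D2:**
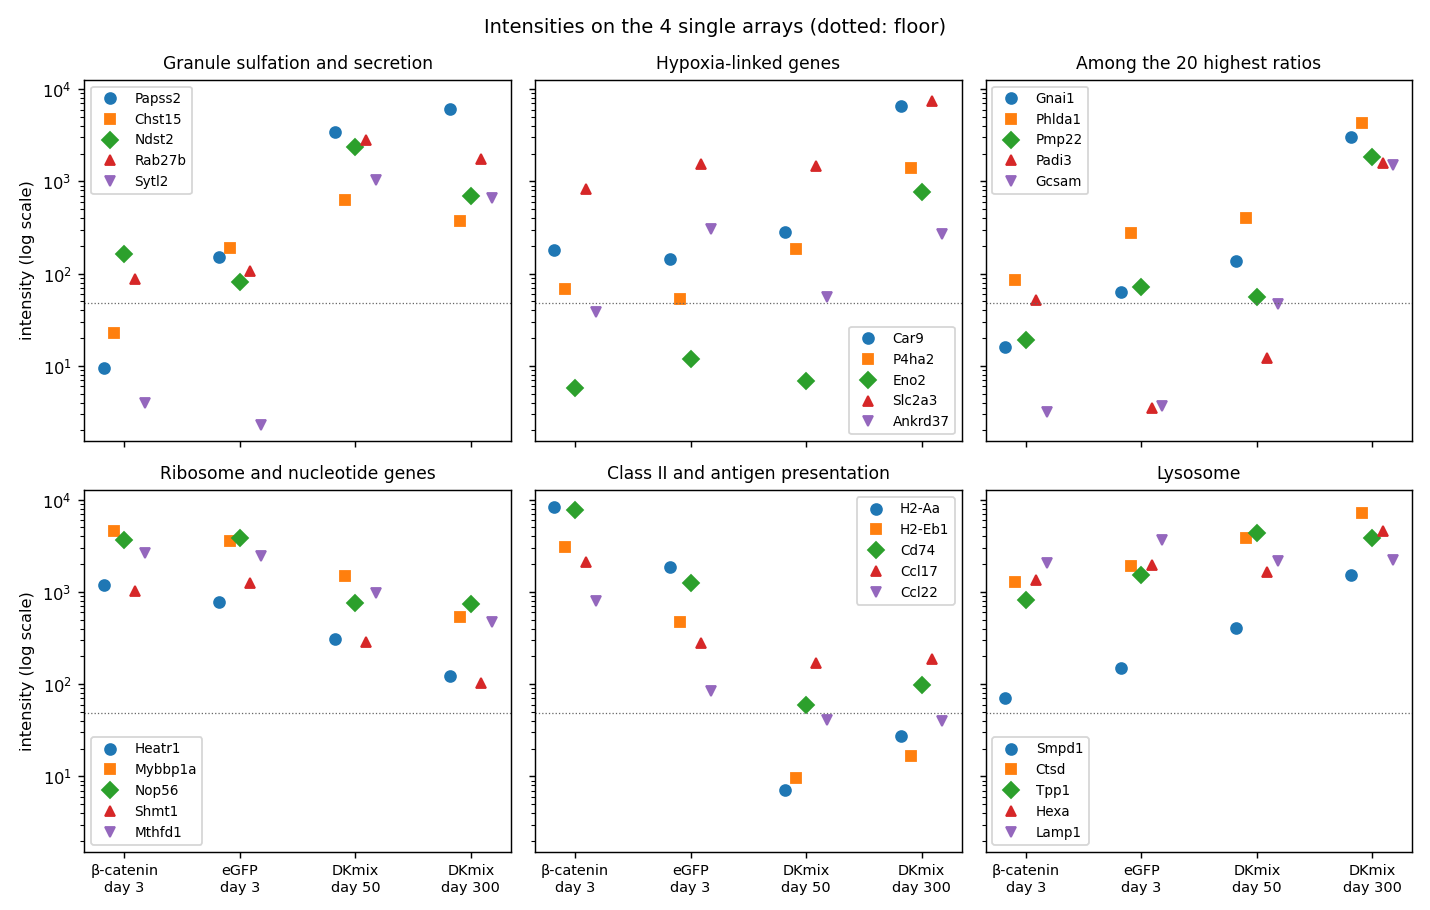
Intensities of 30 named genes on the 4 single arrays (log scale; 1 point per gene and array, no error can be given; dotted line, floor of 48.3). Sulfation and secretion genes are high on both DKmix arrays, the hypoxia-linked Car9, P4ha2 and Eno2 are highest on DKmix day 300, and the class II genes are highest on β-catenin day 3.

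Granule content was first described by its sugar chains. Of 23 genes for the making of granule proteoglycans in the table, 21 were measured. Past 2-fold, 11 stood higher at day 300 and 1 lower, and the median log2 ratio was 1.13 (all genes -0.08; -0.088 for this list on the hybridisation control scale, where all genes had -0.87). Srgn, the serglycin core protein, was itself bright on all arrays and within 2-fold, with 12163 on DKmix day 300 against 9249.7 with β-catenin at day 3. Enzymes that sulfate the chains differed more. Chst15, which adds a second sulfate to chondroitin chains, was at least 7.63-fold higher (22.8 and 368). Ndst2, which starts the sulfation of heparin in mast cells, gave 2337 and 700.0 on DKmix days 50 and 300, against 162 for β-catenin and 80.8 for eGFP at day 3 (4.33-fold). Hs6st1 and Hs3st1, heparan sulfotransferases, were 6.44-fold and 5.15-fold higher, and Ext1, which extends the chains, 4.13-fold. B3galt6, of the linker that joins chain and core, was at least 4.88-fold lower (236 and 45.5). Of the 7 measured mast cell proteases, 4 were higher and 1 lower: Cpa3, carboxypeptidase A3, gave 15951 on DKmix day 300 against 1559.7 with β-catenin at day 3 (10.2-fold), and the tryptase Tpsb2 at least 14.1-fold (11.6 and 683). Mcpt8, a basophil protease, was 20.2-fold lower (1095 and 54.1). The protease median was 3.35, but 0.14 with unique probe sets and -0.70 for the proteases above the floor on both arrays. Mcpt4, a chymase of connective tissue mast cells, was below the floor on both arrays (34.1 and 27.8), though DKmix day 50 gave 489.5.

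Enzymes for amine and lipid mediators were higher as a group, 11 of 17 measured against 2 lower (median 1.60). Tph1, the rate-limiting enzyme of serotonin synthesis, gave 20674 and 16988 on DKmix days 50 and 300, against 277 for β-catenin and 51 for eGFP at day 3 (61.4-fold higher than β-catenin day 3). Ddc, the next enzyme, was at least 50.8-fold higher (29.6 and 2456) and Slc18a2, which loads amines into vesicles, 25-fold (50.3 and 1258). Of the enzymes that break amines down, Maoa was 5.53-fold lower (339.7 and 61.4) and Maob at least 4.55-fold higher (9.1 and 219.6). Hdc, which makes histamine, gave 23 and 1514 on DKmix days 50 and 300, against 234 for β-catenin and 82.4 for eGFP at day 3, so DKmix day 300 was high and DKmix day 50 below the floor. Leukotriene enzymes differed in direction. Alox5 and Alox5ap, which start the pathway, and Ltc4s, which makes leukotriene C4, were 4.12-fold, 5.05-fold and 2.88-fold higher, while Lta4h, which makes leukotriene B4, was 2.76-fold lower (5366 and 1944). Hpgds, the prostaglandin D2 synthase of mast cells, was 3.03-fold higher (124 and 375).

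The IgE receptor and its signalling chain were described from the surface inward. Of 16 measured receptor and surface genes 10 were higher and 1 lower (median 1.78). The receptor subunits Fcer1a, Ms4a2 and Fcer1g were 21.3-fold (724 and 15388), 8.82-fold (811 and 7153) and 4.92-fold (1606 and 7909) higher. P2rx7, an ATP-gated channel, was 16.5-fold higher (73.4 and 1214) and the CD200 receptor family genes Cd200r3 and Cd200r1 9.98-fold and 5.2-fold. Of 27 measured genes of proximal antigen receptor signalling 13 were higher and 4 lower (median 0.73; -0.27 on the hybridisation control scale). The adaptors Lat and Lat2 were 17.4-fold (156 and 2717) and 8.91-fold (256 and 2284) higher. Stim1, the calcium sensor of the endoplasmic reticulum, was 6.28-fold higher, and the lipid phosphatase Inpp5d, a brake on this receptor, 4.0-fold. The kinase Syk was 2.36-fold lower (685 and 290.2) and the phosphatase Ptpn6 2.08-fold lower (1960.5 and 945), so members of 1 pathway differed in direction. For Prkcb, a protein kinase C, 2 of 3 probe sets were past 2-fold higher and the third gave a log2 ratio of -0.16. Among 26 measured genes of the secretory machinery 8 were higher and 3 lower (median 0.32; -0.64 on the hybridisation control scale): the granule GTPase Rab27b was 20.0-fold higher (86.8 and 1736) and its partner Sytl2 at least 13.5-fold (4.0 and 653), against 2.47-fold lower for Scin, which severs actin, and 2.41-fold lower for the fusion protein Vamp8.

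Of 22 measured transcription factors shared by mast cells, megakaryocytes and erythroid cells, 7 were higher and 4 lower (median 0.57; -0.43 on the hybridisation control scale). Mitf, the master regulator of mast cell and pigment cell genes, gave 2533 and 1706 on DKmix days 50 and 300, against 139 for β-catenin and 41.3 for eGFP at day 3 (12.3-fold). Gata1, Gata2 and Tal1, which often bind together, were 7.34-fold, 5.12-fold and 3.57-fold higher. Their partner Lmo2 was 4.95-fold lower (1593 and 322) and Lyl1, close in sequence to Tal1, 2.19-fold lower (1642 and 750.4). GATA factors bind the letters GATA followed by AA in many blood cell genes, and the 250 bases before the start of 3 genes high at day 300 are shown for this reason (RefSeq, build GRCm38.p6, written 5′ to 3′ on the gene's strand; capitals mark AGATAA or TGATAA on either strand). They are Fcer1a (chr1:173227230-173227479, minus strand), Avil (chr10:127000459-127000708, plus strand) and Papss2, the earlier of its 2 listed starts (chr19:32595465-32595714, plus strand).
Fcer1a: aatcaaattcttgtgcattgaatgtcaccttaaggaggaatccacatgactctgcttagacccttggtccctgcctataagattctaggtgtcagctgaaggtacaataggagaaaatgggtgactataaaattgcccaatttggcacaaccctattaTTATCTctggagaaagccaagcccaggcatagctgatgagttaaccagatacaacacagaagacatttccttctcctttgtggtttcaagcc
Avil: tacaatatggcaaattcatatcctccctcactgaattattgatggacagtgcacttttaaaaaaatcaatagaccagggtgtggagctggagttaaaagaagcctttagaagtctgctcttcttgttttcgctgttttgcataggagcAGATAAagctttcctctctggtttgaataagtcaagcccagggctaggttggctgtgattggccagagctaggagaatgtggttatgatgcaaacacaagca
Papss2: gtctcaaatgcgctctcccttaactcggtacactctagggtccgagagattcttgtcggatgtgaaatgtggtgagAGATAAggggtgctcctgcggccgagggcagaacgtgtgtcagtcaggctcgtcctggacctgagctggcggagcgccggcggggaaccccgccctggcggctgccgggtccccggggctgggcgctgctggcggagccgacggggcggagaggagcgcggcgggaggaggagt
Each held 1 match, at 92, 102 and 174 bases before the start. The later listed start of Papss2, not shown, held neither AGATAA nor TGATAA. Among the 100 genes with the highest ratios and a brighter intensity of at least 193.2 (4 times the floor), 84 had a listed promoter and 14 of them (16.7%) held AGATAA. It was held by 5 of 70 promoters (7.1%) of the 100 lowest genes, by 6.8% of the 5539 promoters of all genes as bright and by 11.4% of all 27025 genes with a promoter in the table. TGATAA was held by 9.5%, 8.6%, 4.8% and 9.2% of the same sets. Cma1 and Tph1 held neither in this window. The other motifs searched, on both strands, were held by these shares of the highest and of the lowest genes: GAGGAA 32.1% and 30%, TTGCNNAA 9.5% and 12.9%, CTTTGA 16.7% and 24.3%, GAAANNGAA 4.8% and 8.6%, CATGTG 9.5% and 10%, TATAA 21.4% and 24.3%, and CCAAT 44% and 32.9%. Among all genes as bright these shares were 25.8%, 8.9%, 12.7%, 7%, 8.3%, 14.2% and 40.4%, in the same order of motifs. CACGTG was held by 14.3% of the highest, 2.9% of the lowest and 10.7% of all genes as bright. ACGTG, which lies within it, was held by 31%, 12.9% and 27.5% of these sets. A match is a description of the letters only.

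Lysosomal enzymes and subunits of the lysosomal proton pump were among the higher genes. Of 48 measured, 21 passed 2-fold upward and 1 downward (median 0.81; -0.080 on the hybridisation control scale). Smpd1, acid sphingomyelinase, gave 403 and 1535 on DKmix days 50 and 300, against 71.4 for β-catenin and 150.5 for eGFP at day 3 (21.5-fold higher). Ctsd, the aspartic protease cathepsin D, gave 3821 and 7125 on DKmix days 50 and 300, against 1269 for β-catenin and 1903 for eGFP at day 3 (5.61-fold), and Tpp1, a tripeptidase, 4.71-fold (818 and 3854). The glycan-degrading enzymes Glb1, Hexa and Idua were 3.45-fold, 3.35-fold and at least 3.72-fold higher. Among 11 measured subunits of the vacuolar proton pump 5 were higher and 0 lower. Lamp1, the most widely used lysosome membrane marker, was within 2-fold (2043 and 2193), and Ctsh, a cysteine protease, was 3.58-fold lower (521 and 146). For Laptm5, a lysosomal membrane protein of blood cells, probe sets above the floor ranged from -1.22 to 3.32. Many lysosomal genes carry the letters CACGTG, to which Mitf and its relatives bind, and the Ctsd promoter is shown as an example (chr7:142387828-142388077, minus strand; capitals mark CACGTG).
Ctsd: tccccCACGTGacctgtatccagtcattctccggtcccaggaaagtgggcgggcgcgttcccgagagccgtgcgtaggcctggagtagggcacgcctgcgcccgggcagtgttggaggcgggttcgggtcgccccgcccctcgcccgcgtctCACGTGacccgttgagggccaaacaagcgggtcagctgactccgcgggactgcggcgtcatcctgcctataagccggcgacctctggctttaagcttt
Its 2 matches begin 245 and 98 bases before the start. Of 41 lysosomal genes with a listed promoter 14 (34.1%) held CACGTG, against 10.7% of bright genes and 6.9% of all. Within the list the median log2 ratio was 0.92 for the 14 genes with a match, of which 7 were higher, and 0.86 for the 27 without, of which 12 were higher. Autophagy genes, which feed the lysosome, had 9 higher and 0 lower of 31 (median 0.26; -0.67 on the hybridisation control scale), with Gabarap at 5058 on DKmix day 300 against 1143 with β-catenin at day 3 (4.42-fold) and Ulk1, the kinase that starts the process, 3.67-fold higher.

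**Figure D3:**
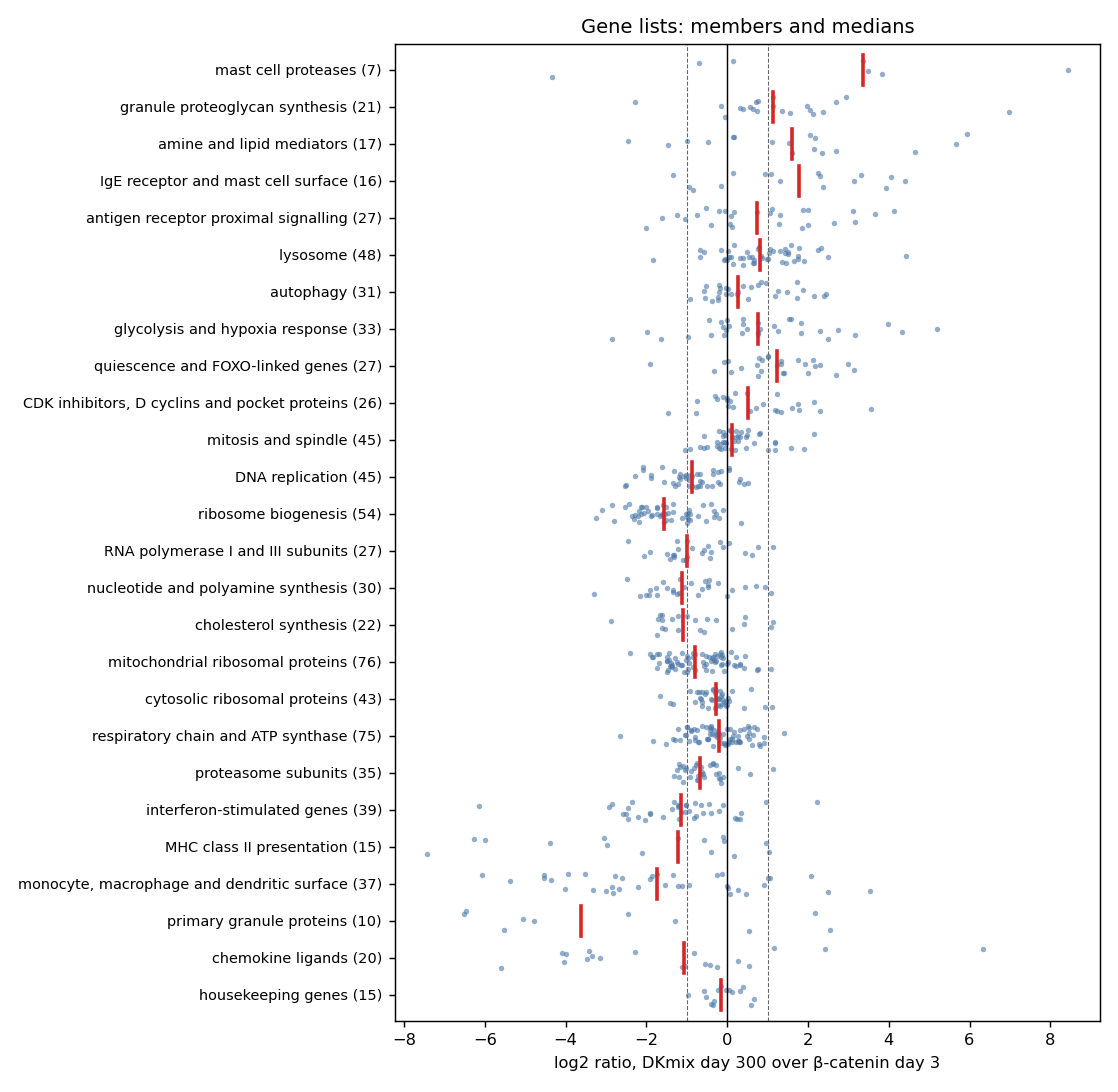
Log2 ratios of DKmix day 300 over β-catenin day 3 for the measured members of 26 gene lists (number measured in parentheses; blue points, genes, with bounds drawn at their bound; red bars, medians; dashed lines, 2-fold). Medians run from -3.62 for primary granule proteins to 3.35 for mast cell proteases. Over members above the floor on both arrays these medians are 0.53 and -0.70. Medians of the granule proteoglycan, antigen receptor, lysosome, autophagy, glycolysis, CDK inhibitor and mitosis lists fall below 0 on the hybridisation control scale.

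Glucose use and the response to low oxygen formed another group with higher members. Of 33 measured genes 13 were higher and 3 lower (median 0.76; -0.24 on the hybridisation control scale). Car9, a membrane carbonic anhydrase that hypoxia-inducible factor switches on, gave 282 and 6552 on DKmix days 50 and 300, against 180.1 for β-catenin and 143 for eGFP at day 3 (36.4-fold higher), so DKmix day 300 stood far above the other 3 arrays. P4ha2 and P4ha1, collagen prolyl hydroxylases, were 20.0-fold (69 and 1382) and 6.7-fold (449 and 3011) higher. Eno2, an enolase form typical of neurons, was below the floor on the other 3 arrays and 767 on DKmix day 300 (at least 15.9-fold). The glucose transporter Slc2a3 was 8.99-fold higher (836 and 7516), while Slc2a1 was within 2-fold (1936 and 1922). Bnip3, a mitophagy receptor, was 3.55-fold higher (1419 and 5039). Glycolytic enzymes themselves were split. Of those given here, Pfkm and Pfkp lie outside the fixed sets of named genes. Pfkm and Pfkp, 2 phosphofructokinases, were 4.9-fold (233 and 1142) and 2.4-fold (1356 and 3254) higher, while Pgk1 gave 11081 on DKmix day 300 against 8516 with β-catenin at day 3 and Ldha 14365 on DKmix day 300 against 15208 with β-catenin at day 3, both within 2-fold. Hif1a, the oxygen-regulated subunit of the factor, was at a log2 ratio of -0.97 (looked up after the list's values were seen), and Aldoc and Hk3 were 7.25-fold and 4.0-fold lower. Hypoxia-inducible factor binds ACGTG, and the Car9 promoter is shown because it holds these letters close to the start (chr4:43506776-43507025, plus strand; capitals mark ACGTG on either strand; CACGTG also contains these letters).
Car9: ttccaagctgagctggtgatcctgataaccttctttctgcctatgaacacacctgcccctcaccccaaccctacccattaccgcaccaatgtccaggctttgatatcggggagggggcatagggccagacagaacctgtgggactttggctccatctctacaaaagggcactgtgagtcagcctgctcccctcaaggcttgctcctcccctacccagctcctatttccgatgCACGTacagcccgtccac
The match begins 18 bases before the start. ACGTG was added to the motif list after the values had been seen. It was held by 22 of 31 promoters of this list (71%), 27.5% of bright genes and 18.5% of all, and the median log2 ratio was 0.57 with it and 0.48 for the 9 genes without it.

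Genes linked to quiescence and FOXO factors were higher on DKmix day 300, 15 of 27 measured against 1 lower (median 1.24). Txnip, an inhibitor of thioredoxin and of glucose uptake, gave 3074 and 5634 on DKmix days 50 and 300, against 644 for β-catenin and 1259.7 for eGFP at day 3 (8.75-fold higher). Klf2, a factor of resting lymphocytes, was 7.95-fold higher (135 and 1072), Sesn3, a stress-induced brake on mTOR, 6.49-fold (54.6 and 354) and Ccng2, an unconventional cyclin of non-dividing cells, 4.35-fold (242 and 1055). Mxi1, which opposes Myc, was 4.5-fold higher (291 and 1307). Myc itself gave 641 on DKmix day 300 against 1276 with β-catenin at day 3 (log2 ratio -0.99) and Mycn was 5.6-fold lower (493 and 88.1). Foxo1 and Foxo3 were within 2-fold, at 0.73 and 0.34.

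Inhibitors of cyclin-dependent kinases (CDKs), D cyclins and pocket proteins formed 1 list, with 10 higher and 1 lower of 26 measured. Its median was 0.52, and -0.48 on the hybridisation control scale. The D cyclin gene Ccnd1 was among the higher members (log2 ratio 1.75), and Ccnd2, Ccnd3, Cdk4 and Cdk6 were within 2-fold. Cdkn2c was at least 11.7-fold higher (25.1 and 566), Cdkn2d 4.41-fold, Cdkn1b 2.52-fold, Cdkn1a 2.28-fold (2732 and 6217) and Rb1 2.35-fold. Cdkn2a, which encodes 2 tumour suppressor proteins, was below the floor on both arrays of the comparison and on eGFP day 3, and gave 288 on DKmix day 50. Genes of DNA replication and of mitosis, which rise in turn through the division cycle, did not differ alike. Of 45 replication genes 19 were lower and 0 higher (median -0.88): Mcm5 gave 1733 and 626 on DKmix days 50 and 300, against 3058 for β-catenin and 3958 for eGFP at day 3 (4.88-fold lower), and 5 of the 6 subunits of the MCM helicase and 3 of the 4 GINS subunits were past 2-fold. Pold1, a replicative polymerase, was 5.76-fold lower (1717 and 298) and Cdt1, which loads the helicase, 4.24-fold (3574 and 843). Of 45 mitosis genes 7 were higher and 1 lower (median 0.12; -0.84 on the hybridisation control scale). Plk1 gave 968 on DKmix day 300 against 1042 with β-catenin at day 3, Top2a 3630.1 on DKmix day 300 against 3334 with β-catenin at day 3 and Mki67 2644 on DKmix day 300 against 2258 with β-catenin at day 3, all within 2-fold, while Foxm1, a factor that drives mitotic genes, was 4.47-fold higher (53.6 and 239.5) and Ccnb2 2.27-fold (1136 and 2582). Among 18 BCL2 family genes 4 were higher and 0 lower (median 0.70; -0.30 on the hybridisation control scale), with the anti-apoptotic Bcl2 (374 and 419.7) and Mcl1 (826 and 1417) within 2-fold and Bcl2l1 2.48-fold higher (151 and 374).

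Ribosome assembly had the largest share of lower genes among the growth lists. Of 54 genes, all measured, 37 were lower and 0 higher (median -1.57). Heatr1, needed for ribosomal RNA transcription, gave 307 and 124 on DKmix days 50 and 300, against 1177 for β-catenin and 768 for eGFP at day 3 (9.52-fold lower). Mybbp1a, a nucleolar protein, gave 1471 and 537 on DKmix days 50 and 300, against 4611 for β-catenin and 3528 for eGFP at day 3 (8.59-fold), and Nop56, of the particles that methylate ribosomal RNA, 760.3 and 732 on DKmix days 50 and 300, against 3629.9 for β-catenin and 3834 for eGFP at day 3 (4.96-fold). On these genes both DKmix arrays lay below both day 3 arrays. Ncl, an abundant nucleolar protein, was within 2-fold (4494 and 3705). The list for RNA polymerases I and III, which make ribosomal and transfer RNA, had fewer lower genes, with 12 of 27 lower and 1 higher (median -0.99). Not all its members were subunits: the transcription factor Ubtf (log2 ratio -1.42) was among the lower ones. Of 5 polymerase I subunits 4 were lower, Polr1e by 5.46-fold and Polr1b by 4.2-fold, against 3 of 8 polymerase III subunits. The proteins of the finished cytosolic ribosome differed little, with 3 of 43 measured lower and 1 higher (median -0.27). Of 76 mitochondrial ribosomal proteins 29 were lower and 1 higher (median -0.80), among them Mrps9 (613 and 168) and Mrpl39 (3407 and 945). Respiratory chain and ATP synthase genes had 10 lower and 1 higher of 75 (median -0.20), so of these 2 mitochondrial lists the one for translation held more lower genes. Proteasome subunits had a median of -0.68 with 9 of 35 lower, and tRNA synthetases -0.71 with 5 of 21 lower.

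Nucleotide and polyamine synthesis genes had 16 of 30 lower and 1 higher (median -1.12). Shmt1 and Shmt2, which pass one-carbon units from serine to folate, were 9.91-fold (1011 and 102) and 3.81-fold (2706 and 710.1) lower. Mthfd1, the next step in that route, gave 977 and 476 on DKmix days 50 and 300, against 2667 for β-catenin and 2473 for eGFP at day 3 (5.6-fold). Umps, the last enzyme of uridine monophosphate synthesis, was 4.48-fold lower and Gart and Ppat, of purine synthesis, 4.05-fold and 3.77-fold. Odc1, the rate-limiting enzyme of polyamine synthesis, was 2.56-fold lower (2343 and 917), and Azin1, which protects it from degradation, was 2.12-fold higher (617 and 1309). Phgdh, the first enzyme of serine synthesis, was 5.36-fold lower (6657 and 1242), while Ddit3, a factor of the stress response, was 12-fold higher (106 and 1275).

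Sterol synthesis was lower at many of its steps, with 11 of 22 genes lower and 2 higher (median -1.11). Hmgcs1, an early enzyme of the pathway, gave 5457 and 1190.3 on DKmix days 50 and 300, against 3465 for β-catenin and 3476 for eGFP at day 3 (2.91-fold lower), with both day 3 arrays between DKmix day 300 and DKmix day 50. Hsd17b7, Idi1 and Fdft1, of later steps, were 7.4-fold, 3.31-fold and 3.08-fold lower. Sqle, which oxidises squalene, was 2.11-fold higher (761 and 1609). Enzymes of fatty acid synthesis had 9 of 25 lower and 3 higher (median -0.46), with Fasn 4.12-fold lower (1894 and 460.1), Acly 2.87-fold (3038 and 1059.6) and Scd1 4.48-fold (522 and 117), and Lpin1, of triglyceride synthesis, 5.81-fold higher (194 and 1125). Sterol factors act beside the CCAAT-binding factor NF-Y, and the Hmgcs1 promoter is shown since it holds 3 such boxes (chr13:119690101-119690350, plus strand; capitals mark CCAAT on either strand).
Hmgcs1: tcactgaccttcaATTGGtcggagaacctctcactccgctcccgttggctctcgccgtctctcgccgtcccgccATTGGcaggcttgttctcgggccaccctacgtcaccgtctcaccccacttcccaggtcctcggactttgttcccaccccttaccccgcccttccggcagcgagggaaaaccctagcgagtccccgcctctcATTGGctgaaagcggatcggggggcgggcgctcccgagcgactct
The matches begin 237, 176 and 45 bases before the start. CCAAT was held by 17 of 18 sterol gene promoters (94.4%), against 40.4% of bright genes and 37.5% of all, so nearly the whole list carries it.

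Neutrophil and monocyte genes were low at day 300. Of 10 measured primary granule proteins 7 were lower and 2 higher (median -3.62, but 0.53 over the members above the floor on both arrays, since most lower members were below it at day 300). The serine proteases Ctsg and Prtn3 were at least 92.1-fold (4449 and 14.1) and at least 88.1-fold (4254 and 32.7) lower. Within the list Cst7, a protease inhibitor, and Serpinb1a, which blocks neutrophil elastase, ran the other way, 5.82-fold (699.5 and 4069) and 4.52-fold (566 and 2558) higher. Ltf, of secondary granules, was below the floor on both arrays (8.4 and 18.2) and 4017 on eGFP day 3. Of 37 measured surface and lysozyme genes of monocytes, macrophages and dendritic cells 23 were lower and 5 higher (median -1.75, but -0.12 over the members above the floor on both arrays). Csf1r, the receptor that defines the monocyte line, gave 121 and 39.2 on DKmix days 50 and 300, against 1999.5 for β-catenin and 11798 for eGFP at day 3, at least 41.4-fold lower. Ccr7, which guides dendritic cells to lymph nodes, gave 65.2 and 55.4 on DKmix days 50 and 300, against 892 for β-catenin and 5.6 for eGFP at day 3 and was 16.1-fold lower, with β-catenin day 3 alone high. The higher members were Cd68, a lysosomal glycoprotein (5407 on DKmix day 300 against 469 with β-catenin at day 3, 11.5-fold), and the Fc receptor partners Tyrobp 5.67-fold and Fcgr3 4.24-fold, with Fcgr1 and Trem2 as bounds (at least 2.09-fold and at least 2.03-fold). Myeloid factors had 10 lower and 2 higher of 26 (median -0.55): Cebpa was at least 12.2-fold lower (587 and 3.3), Spi1, the gene for PU.1, 3.18-fold lower (1804 and 567), and Id2 11.2-fold higher (216 and 2412).

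Antigen presentation on class II molecules was brightest on β-catenin day 3. H2-Aa, a class II α chain, gave 7.1 and 27.1 on DKmix days 50 and 300, against 8396 for β-catenin and 1852 for eGFP at day 3 (at least 174-fold lower at day 300). H2-Eb1, a β chain, gave 9.5 and 16.8 on DKmix days 50 and 300, against 3102 for β-catenin and 469.6 for eGFP at day 3 (at least 64.2-fold), and Cd74, the invariant chain, 58.8 and 99.1 on DKmix days 50 and 300, against 7679.5 for β-catenin and 1243 for eGFP at day 3 (77.5-fold). Both DKmix arrays were low for all 3 and eGFP day 3 lay in between. Of 15 measured genes of this route 8 were lower and 1 higher, Rfxank, a class II promoter factor, at 2.05-fold (96.5 and 198). The median was -1.21, but -0.49 with unique probe sets and -0.58 over the genes above the floor on both arrays. Class I genes differed less: H2-K1 was 2.08-fold lower (15697 and 7530.0) and B2m had a log2 ratio of -0.96, and 5 of 17 genes in all were lower, 0 higher (median -0.40). Class II promoters are known for a shared upstream module that ends in a CCAAT box, and the promoters of both chains are shown (chr17:34287824-34288073, minus strand; chr17:34305617-34305866, plus strand; capitals mark CCAAT on either strand).
H2-Aa: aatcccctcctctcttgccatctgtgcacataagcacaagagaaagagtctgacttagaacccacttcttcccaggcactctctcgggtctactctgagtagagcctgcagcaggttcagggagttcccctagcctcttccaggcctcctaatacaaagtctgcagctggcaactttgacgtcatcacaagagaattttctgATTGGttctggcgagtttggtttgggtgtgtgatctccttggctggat
H2-Eb1: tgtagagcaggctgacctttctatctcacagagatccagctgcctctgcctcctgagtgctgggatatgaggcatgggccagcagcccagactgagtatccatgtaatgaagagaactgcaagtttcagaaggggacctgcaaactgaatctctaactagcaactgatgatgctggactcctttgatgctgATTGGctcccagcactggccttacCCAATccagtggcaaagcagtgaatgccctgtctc
H2-Aa held 1 box that begins 48 bases before the start, and H2-Eb1 held 2, at 59 and 35 bases. CCAAT was held by 9 of 11 promoters of the list (81.8%); 4 of these 9 genes were lower (median log2 ratio -0.10), as were both genes without it (median -2.80).

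Interferon-stimulated genes had 23 of 39 measured lower and 1 higher (median -1.15). Ifitm3, which blocks virus entry, gave 326 and 11.6 on DKmix days 50 and 300, against 3447 for β-catenin and 1438 for eGFP at day 3 (at least 71.4-fold lower). Ifih1, a sensor of viral RNA, was 7.27-fold lower (408 and 56.2), and 4 of 6 OAS genes were past 2-fold. Gbp6, a GTPase induced by interferon γ, was 4.67-fold higher (127 and 592). Chemokine ligands had 11 lower and 3 higher of 20 (median -1.08; -0.27 over those above the floor on both arrays). Ccl9 gave 34.2 and 63.1 on DKmix days 50 and 300, against 3068 for β-catenin and 4111 for eGFP at day 3, 48.6-fold lower, and the dendritic cell products Ccl17 and Ccl22 were 11.1-fold (2089.8 and 188) and at least 16.6-fold (803 and 39.9) lower. Ccl2, Ccl7 and Ccl1 were the higher ones, Ccl1 by 5.32-fold (89.4 and 476) and Ccl7 by at least 2.22-fold. Il1b, an inflammatory cytokine, was 23.8-fold lower (1278 and 53.6). Il4 and Il13, cytokines of mast cells, basophils and T helper 2 cells, were 4.54-fold (138 and 628) and at least 4.77-fold (15.7 and 230.5) higher, while the culture cytokine gene Il3 was below the floor on both arrays (25.1 and 24.7).

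Surface receptors for the culture cytokines differed by chain. Kit gave 3459.5 and 1263 on DKmix days 50 and 300, against 82.9 for β-catenin and 55.8 for eGFP at day 3 (15.2-fold higher). The β chains Csf2rb and Csf2rb2 of the IL-3 receptor were 2.42-fold and 5.54-fold higher. The α chain Il3ra of that receptor was within 2-fold (119.5 and 108), and Flt3 was below the floor on both arrays. Of stem and progenitor surface genes, Cd34 gave 2068 and 4293 on DKmix days 50 and 300, against 804 for β-catenin and 112 for eGFP at day 3 (5.34-fold higher), and Thy1, Cd48 and Eng were at least 48.9-fold (2361 and 3.7), at least 22.9-fold (1105 and 34) and at least 13.1-fold (634 and 18.5) lower. Stem cell factors had 5 higher and 8 lower of 23 (median -0.21). Hlf, a factor of resting stem cells, was 5.32-fold higher (89.3 and 475) and Erg 2.42-fold (182 and 442), while Myb was 5.61-fold lower (4149 and 740.2), Sox4 18.5-fold (899.9 and 48.7) and Hoxa9 at least 5.51-fold (266 and 3.9). Integrins paired unevenly: the α chain Itga2b was 4.78-fold higher (1227 and 5868) and its β partner Itgb3 at least 10.3-fold lower (497 and 26.9). Zinc and calcium transport genes were among 12 higher of 31 measured channels and transporters (5 lower, median 0.58; -0.34 on the hybridisation control scale), with the zinc carriers Slc39a4 6.28-fold (397 and 2489.7) and Slc30a2 13.7-fold (52.1 and 714) and the calcium channel Itpr3 11.1-fold (78.7 and 871).

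Signalling below the growth factor receptors differed gene by gene. Of 35 measured feedback genes of the RAS, MAPK and PI3K pathways 10 were higher and 5 lower (median 0.43; -0.57 on the hybridisation control scale). Inpp4b, a phosphatase that limits PI3K signals, gave 4884 and 1666 on DKmix days 50 and 300, against 311 for β-catenin and 4.2 for eGFP at day 3 (5.35-fold higher), and both DKmix arrays were far above both day 3 arrays. The MAPK phosphatases ran in both directions: Dusp6 and Dusp4 were 4.33-fold (85.3 and 369) and 4.06-fold (65.8 and 267) higher, and Dusp2 and Dusp5 5.43-fold (533 and 98.2) and 4.76-fold (877 and 184) lower. Spred1, another inhibitor of this route, was 3.02-fold higher (137 and 414) and Spry1 at least 2.48-fold lower (120.0 and 26.8). Among immediate early genes Jun and Fos, which pair to form the factor AP-1, stood apart. Jun gave 1319.5 and 776 on DKmix days 50 and 300, against 165 for β-catenin and 45.6 for eGFP at day 3 (4.71-fold higher) and Fos 2301 and 45.8 on DKmix days 50 and 300, against 522 for β-catenin and 440.5 for eGFP at day 3 (at least 10.8-fold lower), so DKmix day 50 was the brightest array for both. Of other cytokine receptors 9 of 28 were higher and 5 lower (median 0.11), with the TGF-β receptors Tgfbr1 and Tgfbr2 at least 7.03-fold (46.9 and 339.5) and 4.41-fold (272 and 1201) higher and Tnfrsf1a, a tumour necrosis factor receptor, at least 14.3-fold lower (692 and 7.5). Chemoattractant receptors had 11 of 20 lower and 1 higher (median -1.32; -0.30 over those above the floor on both arrays), among them Ccr2, the receptor for Ccl2, at least 6.92-fold lower (334 and 17.8) and Cxcr4, which holds progenitors in the marrow, at least 4.45-fold (215 and 2.9).

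Stress and repair lists had members in both directions. Of 28 measured p53 target genes 10 were higher and 7 lower (median 0.23; -0.67 on the hybridisation control scale). Bbc3, a killer protein of the BCL2 family, was 4.0-fold higher (129 and 516), Mdm2, which degrades p53, 2.47-fold (509 and 1257) and Gadd45g 4.06-fold (132 and 537), while its relatives Gadd45b and Gadd45a were 5.91-fold (371 and 62.8) and 2.86-fold (164 and 57.3) lower. Antioxidant and glutathione genes had 8 higher and 8 lower of 35 (median -0.19). The glutathione transferases Gstm5 and Gstm1 gave 6.49-fold (158 and 1023) and 3.37-fold (484 and 1629) higher values, against at least 9.78-fold lower for Mgst2 (472 and 6.6); eGFP day 3 gave 1799 for Gstm1. Cytosolic chaperones had 8 lower and 2 higher of 26 (median -0.35): Dnaja1, a partner of heat shock protein 70, was 4.7-fold lower (1656 and 353) and Hspa8, the constitutive form of that protein, 2.66-fold (16788 and 6306). In DNA repair 9 of 52 were lower and 3 higher (median -0.36), with Apex1, which cuts at missing bases, 6.67-fold lower (1276 and 191) and Ercc5, a nuclease of excision repair, 10.3-fold higher (56.2 and 581). Of the citric acid cycle 2 of 25 genes were higher and 1 lower (median -0.24). Of sterol and lipid export, storage and breakdown 5 of 19 genes were higher and 3 lower (median 0.19). Hadha, of fatty acid oxidation, was 2.34-fold higher (634 and 1482), and Lpl, which frees fatty acids from lipoproteins, gave 4.0 and 9.9 on DKmix days 50 and 300, against 825 for β-catenin and 6326 for eGFP at day 3 (at least 17.1-fold lower).

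For Ctnnb1, the gene carried by the vector, the brightest probe set gave 3132 on DKmix day 300 against 4492 with β-catenin at day 3, within 2-fold. Of 34 measured Wnt pathway and target genes 8 were higher and 3 lower (median 0.03), with Axin2, a standard target, at least 1.89-fold higher (40.7 and 91.4) as a bound short of 2-fold, Ccnd1 3.36-fold (338 and 1136) and Lef1 below the floor on both arrays. In the telomere list Tert was below the floor on DKmix day 300 (60.9 and 13.2) and 4 of 15 genes were lower, among them Dkc1, of the telomerase RNA complex, by 2.53-fold (786 and 311). Polycomb, Trithorax and DNA methylation genes had 6 higher and 6 lower of 49 (median -0.16), with Dnmt3b 7.47-fold lower (432 and 57.9) and Kdm5b 4.55-fold higher (223 and 1013). All 15 housekeeping genes were within 2-fold (median -0.16, but -1.16 on the hybridisation control scale). In DKmix day 50 over eGFP day 3, 2 of these 15 were higher and 5 lower. In the comparison described here the unfolded protein response list also had few called genes, 1 higher and 3 lower of 29. Hspa5 was among the lower ones, by 2.3-fold (13338 and 5791).

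DKmix day 50 over eGFP day 3 was the pair of a late and an early culture that shared no array with this comparison. It differed in vector on the early side and in 3′ to 5′ ratios, which were high on both of its arrays and low on both arrays here, and the part of these in the values below was not tested. In that pair 2151 of 13830 measured genes (15.6%) were higher and 2071 (15%) lower. Among the 11187 genes measured in both pairs, 612 were higher in both, which is 36.8% of the 1665 higher genes here and 32.6% of the 1876 there, and 143 (8.59%) of the genes higher here were lower there. Of the lower genes 596 were shared, 35.1% of 1699 here and 31.7% of 1882 there, and 142 (8.36%) ran the other way. Mast cell proteases, the IgE receptor list, primary granule proteins, class II presentation and DNA replication had medians of 1 sign in both pairs: 3.35 and 6.79, 1.78 and 2.47, -3.62 and -4.17, -1.21 and -1.29, and -0.88 and -0.85. Over genes above the floor on both arrays here, mast cell proteases had -0.70 and primary granule proteins 0.53. The signs of these lists here thus rest on bounds, and this limit was not applied to the other pair. Ribosome biogenesis had -1.57 here and -0.78 there, with 37 and 22 genes lower. Of the 26 lists plotted, those on opposite sides of 0 were glycolysis and hypoxia, CDK inhibitors with D cyclins and pocket proteins, and mitosis. Glycolysis and hypoxia had 0.76 and -0.75, with 15 of 32 lower there. The CDK inhibitor and D cyclin list had 0.52 and -0.40. Mitosis, with a smaller value here, had 0.12 and -1.33, with 28 of 42 lower and 0 higher there. On the hybridisation control scale these 3 medians were -0.24, -0.48 and -0.84 here. Cholesterol synthesis was at -1.11 here and -0.26 there, and the lysosome list at 0.81 and 0.33. The 26 plotted lists were a choice from 65, and some lists not plotted also lay on opposite sides of 0. Among these were the BCL2 family (0.70 and -0.14), stem and progenitor factors (-0.21 and 0.57) and culture cytokine receptors (-0.05 and 1.93). Chemoattractant receptors had -1.32 and 0.02, and immediate early genes -0.14 and 0.74.

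**Figure D4:**
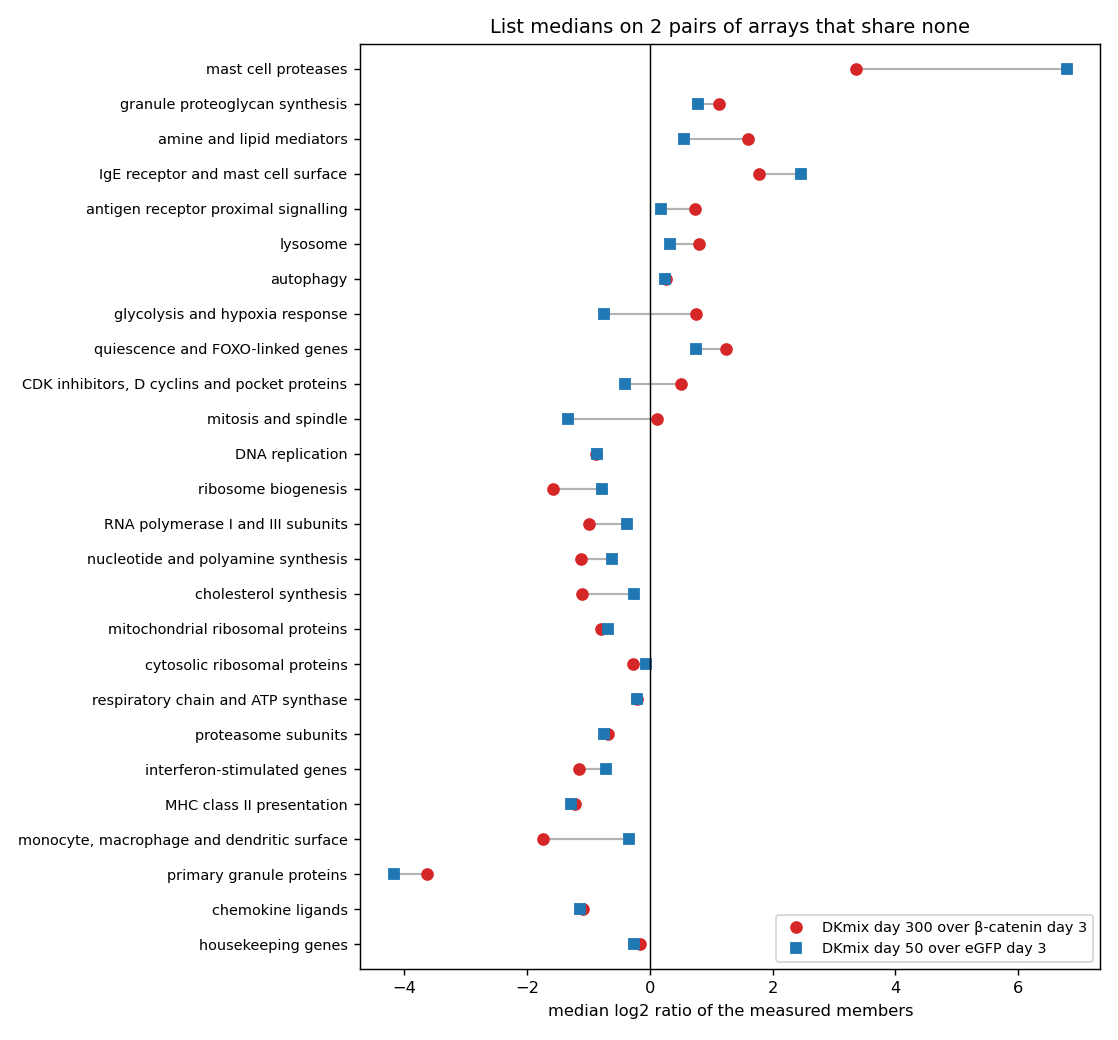
Median log2 ratio of 26 gene lists in DKmix day 300 over β-catenin day 3 (red circles) and in DKmix day 50 over eGFP day 3 (blue squares), a pair that shares no array with it; grey lines join both values of a list. Mast cell, granulocyte, replication and ribosome assembly lists lie on the same side of 0 in both pairs. The glycolysis, CDK inhibitor and mitosis lists lie on opposite sides. On the hybridisation control scale these 3 have medians of -0.24, -0.48 and -0.84 in the first pair. Over genes above the floor on both of its arrays, mast cell proteases have -0.70 and primary granule proteins 0.53 in that pair.

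Ratios were also laid out along the chromosomes, with gene order from RefSeq (GRCm38.p6) and genes of at least 193.2 on both arrays. Chromosome 3 had the highest median, 0.31 over 243 genes, 68.7% of them above 0. The other autosomes and the X chromosome had medians from -0.25 to 0.12. Of 622 measured genes on chromosome 3, 141 (22.7%) were higher and 53 (8.52%) lower, against 14% and 14.4% over all genes. The median of its 243 bright genes was 0.33 above that of all other chromosomes. Quantile normalization, lowess centring, averaged probe sets and unique probe sets gave 0.33, 0.34, 0.24 and 0.34. Other floors, the limit to genes above the floor on both arrays and the hybridisation control scale could not change this difference for genes this bright. In 4 equal stretches of the gene order of chromosome 3 the median was 0.05 from Mrps28 to Gfm1 and 0.42 from Lxn to S100a6. It was 0.54 from S100a10 to Taf13 and 0.32 from Clcc1 to Lrrc40. The chromosome's median was 0.23 for DKmix day 300 over DKmix day 50, which shares the day 300 array, 0.01 for DKmix day 50 over eGFP day 3, which shares neither, and -0.13 for β-catenin over eGFP at day 3, which shares the β-catenin array and where chromosomes 3 and 19 were the lowest. On chromosome 15 the pattern was local. The first of its 4 stretches, 54 genes from Oxct1 to Washc5, had a median of 0.71, the highest of 80 such stretches, with 19 genes higher and 0 lower, and the remaining 3 had -0.06 to 0.11. In this stretch the cohesin subunit Rad21 was 7.4-fold higher (231 and 1710.3), the Tie2 ligand Angpt1 4.52-fold (285 and 1289.9) and Basp1, a membrane-bound protein of growing axons, 5.18-fold (1353 and 7008); these genes were chosen after their values were seen. That stretch had a median of 0.33 in DKmix day 50 over eGFP day 3. The lowest stretch, -0.51, was the third on chromosome 14.

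**Figure D5:**
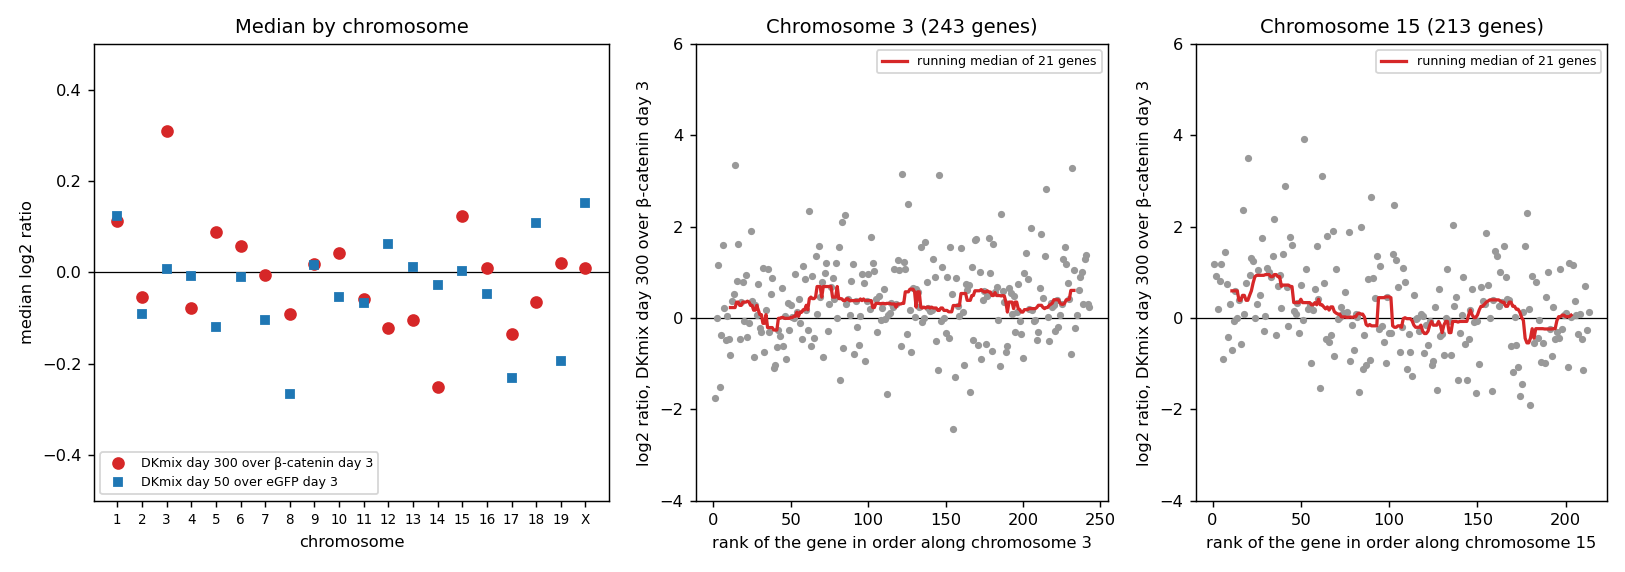
Left, the median log2 ratio by chromosome for genes of at least 193.2 on both arrays of each pair (red circles, DKmix day 300 over β-catenin day 3; blue squares, DKmix day 50 over eGFP day 3). Middle and right, log2 ratios of single genes (grey) in their order along chromosomes 3 and 15, with the running median of 21 genes (red): it stays above 0 along most of chromosome 3, and on chromosome 15 it is highest over the first genes and near 0 over most of the others.

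Neighbours were measured genes next to each other in the gene order, so genes not measured between them were skipped. Past 2-fold in 1 direction they formed 56 higher and 45 lower runs of 3 or more genes. The number of runs to be expected with 14% of measured genes higher and 14.4% lower was not computed. The longest were 6 genes. On chromosome 11 the chemokine genes lay in 2 runs of opposite direction. Ccl5, Ccl9, Ccl6, Ccl3 and Ccl4 with Wfdc17 were all lower, from 48.6-fold for Ccl9 to at least 2.17-fold for Ccl4. Ccl2, Ccl7 and Ccl1, with the next measured genes Tmem132e (at least 7.07-fold) and Zfp830 (2.14-fold), were all higher. On chromosome 14 the run of Zswim8, Ndst2, Camk2g, Vcl, Ap3m1 and Adk was higher: it joined the heparin enzyme Ndst2 with Adk, adenosine kinase, 10.8-fold higher (122 and 1319), and Vcl, the adhesion protein vinculin (3.92-fold). On chromosome 19 Slc15a3, Tmem132a, Tmem109, Prpf19, Ccdc86 and AW112010 were lower, Slc15a3, a peptide transporter of lysosomes, by at least 17.1-fold (824 and 6.7). Lower runs of 5 were Gimap1, Tmem176b, Tmem176a, Aoc1 and Gpnmb on chromosome 6, where Tmem176b was at least 93.8-fold lower (4529 and 37.6), and Nacc1, Trmt1, Lyl1, Nfix and Gadd45gip1 on chromosome 8. Shorter runs of known clusters, chosen after their values were seen, were Rgs13, Rgs1 and Rgs18, regulators of G protein signalling, with Pla2g4a on chromosome 1, where Rgs13 was at least 21.7-fold (1.5 and 1046) and Rgs18 16-fold higher (191 and 3059).

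Probe sets of a gene gave the only error measure within the arrays. For 563 genes called higher with a second probe set above the floor, that probe set had the same sign in 83.8% and was past 2-fold in 46.2%; for 507 genes called lower these shares were 84.8% and 38.1%. The widest disagreement was in Mtss1, an actin-binding protein, from -0.04 to 5.23 over 4 probe sets, followed by Laptm5 and by Prdx4, an antioxidant enzyme of the secretory pathway, from -0.82 to 3.48. Neat1, a long non-coding RNA, ranged from -0.89 to 2.97, Tbca, a tubulin chaperone, from 0.15 to 3.99, Cux1 from -0.57 to 3.18, Serf1 from -1.29 to 2.42, Itpr2 from -0.31 to 3.05 and Cpsf6, of messenger RNA processing, from -1.28 to 2.01. Apart from these, some genes given with a direction above had 1 probe set of the other sign: -0.45 for Erg, -0.32 for Azin1, -0.17 for Bcl2l1, -0.16 for Prkcb, -0.14 for Ap3m1, -0.13 for Rad21, 0.13 for Hspa8, 0.32 for Mrps9 and 0.43 for Phgdh. In others a second probe set had the same sign but a much smaller log2 ratio than the one used: 0.28 for Sesn3, 0.54 for Serpinb1a, 1.53 for P2rx7, 1.57 for Ddit3, 1.67 for Id2, 1.82 for Rab27b, -0.53 for Mrpl39, -0.61 for Pold1, -0.95 for Hsd17b7, -1.01 for Myb and -1.34 for Shmt1.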

How the data were processed

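The deposited table held linear intensities for 45101 Affymetrix probe sets on 4 arrays, which the authors obtained from MAS5, as the submitters' processing notes record. The 2% trimmed mean is 150 on every array. The MAS5 version, detection calls and genome build are not given in the sources used here. Biotin-labelled complementary RNA from total RNA was hybridised, per the labels' protocols.

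Of the probe sets, 932 carried several symbols and were left out, as were 64 controls. Where a gene had several probe sets (9010 genes), the one brightest on average, in log2 intensity over all 4 arrays, was used, and 18032 genes matched RefSeq by Entrez identifier. Values below the floor of 48.3, the pooled median, were set to it before the log2 ratio was taken. A gene was called at 2-fold; no p-value was computed. The number of arrays limits the precision. Named genes were drawn from the 20 highest and 20 lowest and from up to 6 members of each list in each direction with its main members. The 6 longest neighbour runs and the 10 genes with the widest probe set disagreement were added. Genes from outside these sets are stated as exceptions. Not every gene of the ranking and the lists was named, and the choice among them followed no fixed rule. The members and the 65 gene lists were chosen with earlier results of these data known. Calling was tested on a copy of the β-catenin day 3 array with added noise and changed bright genes. That noise was smaller than the SD of 0.66 for a single probe set, so no rate of false calls follows for these arrays. Bounds were checked mainly on made-up values. Python 3.11.15, pandas 2.3.3, scipy 1.17.1 and statsmodels 0.14.6 were used.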

Additional observations from a re-analysis of the deposited data

How the results depend on the processing

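The scale, the floor, the choice of probe set and the handling of bounds were each changed in turn. Counts of genes higher and lower stayed within 1.5 times of 1773 and 1828 under quantile normalization (1774 and 1786), lowess centring (1991 and 1562), averaging a gene's probe sets (1457 and 1524), unique probe sets (1568 and 1499) and only genes above the floor on both arrays (1353 and 1231). They moved to 603 and 5960 on the hybridisation control scale, to 3528 and 4165 with the floor at percentile 25 of all values (11) and to 1157 and 1009 at percentile 75 (134.6). The hybridisation control scale lowers ratios alike, by 0.996 (log2), only for genes that stay above the floor on both arrays. Bounds shift otherwise, and the number of measured genes changed from 12666 to 13542. On this scale 23 of 65 list medians changed sign. Of these, 15 lay within 0.5 of 0 (log2) to begin with. The others were proteoglycan synthesis (-0.088), antigen receptor signalling (-0.27), shared lineage factors (-0.43), CDK inhibitors with D cyclins (-0.48), the BCL2 family (-0.30), glycolysis and hypoxia (-0.24), the lysosome (-0.080) and ion channels and transporters (-0.34). With only genes above the floor on both arrays, which drops all bounds, 8 changed sign: 4 lists within 0.5 of 0 to begin with (culture cytokine receptors 1.27, megakaryocyte genes 1.47, basophil and eosinophil genes 0.50, immediate early genes 0.079) and those of mast cell proteases (-0.70), primary granule proteins (0.53), secondary granule genes (0.27) and stem cell surface genes (0.30, and 0.17 with the floor at percentile 75). With unique probe sets the medians of mast cell proteases, the IgE receptor list and class II presentation moved to 0.14, 1.08 and -0.49. Of 244 named genes past 2-fold, 208 stayed past it on the hybridisation control scale and 220 when probe sets were averaged. Cpsf6 turned to -0.067 when probe sets were averaged, and Nfix to 0.49 with unique probe sets; the cause was not tested. The difference between chromosome 3 and the others, an alternative set chosen after seeing the data, ranged from 0.24 to 0.34. That range comes from quantile normalization, lowess centring, averaged probe sets and unique probe sets. The remaining settings could not change the difference, since only genes far above the floors entered it and a change of scale shifts them alike. No paired analysis was possible because each group had 1 array, and no array could be left out for the same reason. Signals near the floor limit low genes to bounds.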
